A study of Mus musculus with 6 samples.

Results

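Z-disc proteins were followed through 10 genes, each measured by 1 probe set, out of the 19938 genes with a single symbol on the array. The genes were taken by name from the probe annotation (Actn2, Actn3, Myoz1, Myoz2, Tcap, Ldb3, Myot, Xirp1, Pdlim3 and Des), and all 10 were found. RNA came from C2C12, an established mouse myoblast line whose cells fuse into striated myotubes once serum is lowered. The medium held 10% fetal bovine serum during growth and 2% horse serum from about 90% density onwards. At day 1 of differentiation the cells received either an siRNA against mouse H19 (3 arrays) or a control siRNA (3 arrays), and total RNA was taken 40 h later, so both groups carry an siRNA transfection. No label says that the 3 transfections of a group were separate cultures, so the p-values cover only the variation among these arrays, and that may be technical. The labels name 1 siRNA reagent per group and 1 cell line, with no other allele or agent.

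The Z-disc is the plate at each end of a sarcomere, where the barbed ends of thin filaments from neighbouring sarcomeres interlock and where titin is anchored. Alpha-actinin dimers cross-link the actin filaments there, PDZ-LIM adaptors, calsarcins and myotilin dock on alpha-actinin, telethonin caps titin, and desmin filaments tie the discs of neighbouring myofibrils together. Genes for these proteins switch on as myoblasts leave the cell cycle and build myofibrils. The comparison asks whether their transcripts differ when H19, an imprinted long noncoding RNA, is depleted in cells that are differentiating.

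No Z-disc gene passed the threshold, and the observed differences were small in both directions. In limma 0 of 10 genes had a Benjamini-Hochberg adjusted p under 0.05, against 0.199% of all 21559 units, 0.125% higher and 0.0742% lower (a unit being a gene, or a probe set listed under several genes). The differences (H19 siRNA minus control siRNA, on the log2 scale) ran from -0.15 for Myoz2 to 0.16 for Xirp1, with a median of 0.03 over the 10 genes and 0.01 over all units. Differences were positive for 6 of the 10, against 58.0% of all units, a like share. At an unadjusted limma p under 0.05 there were 3 genes, all higher with H19 siRNA (Actn3, Xirp1 and Ldb3), against 6.61% of all units in that direction and 10.9% in either. All 3 H19 siRNA arrays lay above all 3 control siRNA arrays for 4 genes (Actn3, Xirp1, Ldb3 and Des), against 10.5% of all units, and lay below for 0 genes, against 7.09% of all units (17.6% in either direction). These shares are given as counts on shared arrays, with no test. Exact permutation p-values with 3 arrays on each side have 0.1 as their minimum (two-sided), and these 4 genes reached it. Any gene whose groups are fully apart must reach it, so this p adds nothing to the counts above. The scale of each gene's difference against its own spread can be seen in the panels of values by array.

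**Figure D1:**
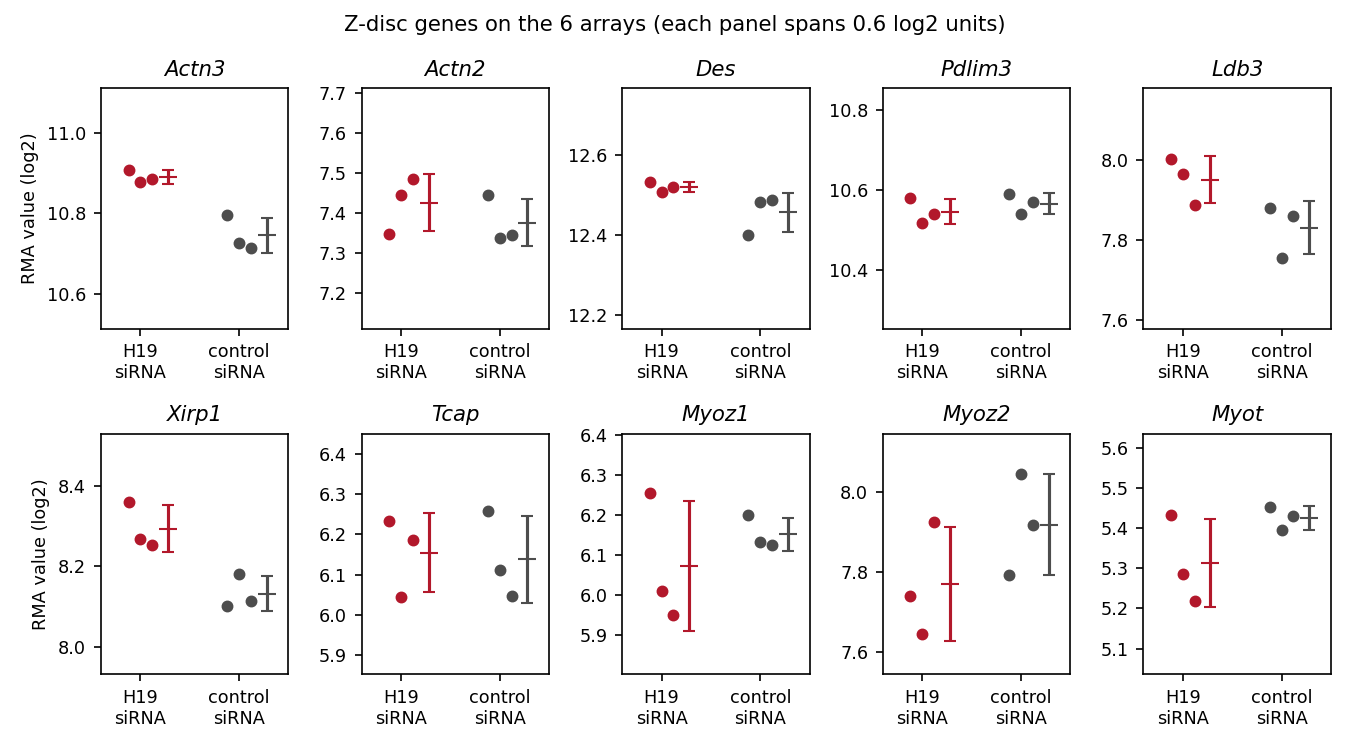
RMA values (log2, vertical axis) of the 10 Z-disc genes on the 3 H19 siRNA arrays (red, left) and the 3 control siRNA arrays (grey, right), replicates 1 to 3 from left to right, with the mean and SD beside the points (n = 3 each). Groups are apart in the panels for Actn3, Ldb3, Xirp1 and Des and overlap in the other 6.

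The targeted transcript and the cell type were checked against the labels. The probe set listed under Mir675, which H19 hosts, and under Supt6 (10569341) read 10.38, 10.28 and 10.37 with H19 siRNA, against 12.21, 12.22 and 12.27 with control siRNA, and fell by 1.89 on the log2 scale (SE 0.04, limma adjusted p = 1.80e-05). Among muscle markers, the regulators Myod1 and Myog averaged 11.78 and 11.40 with H19 siRNA, against 11.55 and 11.18 with control siRNA (log2 RMA values, n = 3), with limma adjusted p-values of 0.0965 and 0.0779. Myh3, embryonic myosin, differed by -0.03 and Ckm, muscle creatine kinase, by 0.10. Myh8, perinatal myosin, lay lower on all 3 H19 siRNA arrays, with a difference of -0.11 and a limma adjusted p of 0.309, against the direction of the marker mean. The mean over the 9 muscle markers, Acta1 and Tnnt3 among them, was 10.68 to 10.74 on H19 siRNA arrays and 10.59 to 10.62 on control siRNA arrays, so these groups did not overlap. The part of that shift in the Z-disc differences was not tested, and in bulk RNA more muscle-like cells and more RNA per cell cannot be told apart. Mean values of adipocyte, macrophage, endothelial, smooth muscle and bone marker lists overlapped between the groups. Single markers of these lists could still be apart. Lmod1 (0.22) and Csf1r (0.10) lay higher on all 3 H19 siRNA arrays, and Cd68 (-0.19) and Dmp1 (-0.21) lay lower. None of them passed the threshold, and they were named after their values were seen. Deposited log2 values have no true zero and no detection calls were used, so none of these markers can be called absent.

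Promoter windows are shown for Ldb3 and Des, whose arrays did not overlap between the groups, and for Myoz2, the gene with the most negative difference over all 6 arrays. Windows for 5 of the 10 genes were read from RefSeq's promoter table (GRCm38.p6, 250 bases before to 50 after a gene's start). These were Des, Myoz2, Pdlim3, Actn2 and Ldb3, with 2 windows for Ldb3, of which the first listed is printed. Windows on 1 chromosome were left out for the 10 genes, so a gene not named here may still have a window. Ldb3, Des and Myoz2 were chosen for printing after their values were seen. The motifs searched on both strands were the E-box CANNTG, bound by MyoD family factors among others, its form CAGCTG (which is also counted as CANNTG), the MEF2 consensus and the CArG box of serum response factor. Capitals mark every match, and sequences run 5′ to 3′ on the gene's strand.
Ldb3, chr14:34588632-34588931, minus strand: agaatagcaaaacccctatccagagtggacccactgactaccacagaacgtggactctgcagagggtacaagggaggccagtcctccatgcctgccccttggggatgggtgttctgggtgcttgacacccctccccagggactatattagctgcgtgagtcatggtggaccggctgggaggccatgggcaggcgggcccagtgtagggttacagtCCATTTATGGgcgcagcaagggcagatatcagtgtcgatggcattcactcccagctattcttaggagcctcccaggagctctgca
Des, chr1:75360042-75360341, plus strand: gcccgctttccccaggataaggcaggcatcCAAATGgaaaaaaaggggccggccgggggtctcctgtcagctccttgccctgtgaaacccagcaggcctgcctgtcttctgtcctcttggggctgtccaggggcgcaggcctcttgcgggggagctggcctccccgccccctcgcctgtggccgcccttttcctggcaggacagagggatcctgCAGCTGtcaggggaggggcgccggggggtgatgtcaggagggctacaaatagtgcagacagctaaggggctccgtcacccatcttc
Myoz2, chr3:123034938-123035237, minus strand: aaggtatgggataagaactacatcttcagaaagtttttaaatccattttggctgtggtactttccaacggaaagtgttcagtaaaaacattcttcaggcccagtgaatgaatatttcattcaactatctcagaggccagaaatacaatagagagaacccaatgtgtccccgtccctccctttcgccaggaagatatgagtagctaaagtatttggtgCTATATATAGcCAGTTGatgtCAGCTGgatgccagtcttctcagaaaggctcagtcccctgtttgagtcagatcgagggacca
The printed Ldb3 window held 1 CArG box, which starts 35 bases before that window's gene start, and 0 E-boxes. In the other Ldb3 window, which has its own gene start, the same CArG box starts 109 bases before it. The Des window held 2 E-boxes, at 220 and 36 bases before the start, of which the nearer is CAGCTG. In the Myoz2 window a MEF2 consensus match 33 bases before the start stood just upstream of 2 E-boxes at 22 and 12 bases, the nearer again CAGCTG. The windows of Pdlim3 and Actn2 held 2 and 3 E-boxes, with CAGCTG in that of Pdlim3. Of all 32851 windows in the table, 72.3% held CANNTG, 16.3% CAGCTG, 3.19% the MEF2 consensus and 1.63% a CArG box. A match describes letters in the window and is no evidence of binding.

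Of the 2 sarcomeric alpha-actinins, the actin cross-linkers of the Z-disc, Actn3 read higher on every H19 siRNA array and Actn2 did not. Actn3 (probe set 10464836), the form restricted to fast fibres, read 10.91, 10.88 and 10.89 with H19 siRNA, against 10.80, 10.73 and 10.72 with control siRNA. The highest control array lay below the lowest H19 siRNA array, and the H19 siRNA arrays were close together (SD 0.02 with H19 siRNA and 0.04 with control siRNA, n = 3 each). The difference was 0.15 (SE 0.04, 95% interval 0.06 to 0.23), a 1.11-fold level, with a limma adjusted p of 0.240. With an intensity trend and robust variance in limma the adjusted p was 0.0217, and this was the only alternative in which any of the 10 genes passed. In that alternative 435 of all 21559 units passed, against 43 in the main fit. Actn2 (10407742), present in all skeletal fibres and in heart, read 7.35, 7.45 and 7.48 with H19 siRNA, against 7.44, 7.34 and 7.35 with control siRNA. The groups overlapped, each with a single array near the other group's values, and the difference was 0.05 (95% interval -0.07 to 0.17, limma adjusted p = 0.774). It was 0.09 without H19 siRNA replicate 1 and 0.02 without H19 siRNA replicate 3.

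Whether the 2 alpha-actinins moved unequally was tested on the within-array difference of their log2 values. Actn3 minus Actn2 averaged 3.47 ± 0.09 with H19 siRNA and 3.37 ± 0.02 with control siRNA (SD, n = 3 each), a shift of 0.10 between groups. The 3 H19 siRNA values of 3.56, 3.43 and 3.40 lay above the control values of 3.35, 3.39 and 3.37, and the exact permutation p was 0.1, the smallest that 3 against 3 allows (two-sided, 0.2 after adjustment over the 2 pairs compared). Without H19 siRNA replicate 1 the shift was 0.05. These differences carry each probe set's own hybridisation strength, so they rank the groups and not the 2 genes.

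The calsarcins are small Z-disc proteins that bind alpha-actinin and the phosphatase calcineurin, and the groups overlapped for each. The family's other gene, Myoz3, averaged 6.94 ± 0.13 with H19 siRNA and 6.85 ± 0.06 with control siRNA (SD, n = 3 each), a difference of 0.09 with a limma adjusted p of 0.703. Myoz2 (10501895), the calsarcin of slow fibres and heart, read 7.74, 7.65 and 7.93 with H19 siRNA, against 7.79, 8.04 and 7.92 with control siRNA. The difference was -0.15 with a 95% interval from -0.36 to 0.06 (limma adjusted p = 0.608), and the H19 siRNA replicate 3 array lay among the control values. It was -0.22 without H19 siRNA replicate 3 and -0.08 without control siRNA replicate 2. The difference of Myot was more negative than that of Myoz2 without H19 siRNA replicate 1, H19 siRNA replicate 2 or control siRNA replicate 2. That of Myoz1 was also more negative than that of Myoz2 without H19 siRNA replicate 1 (-0.17 against -0.13). The same held without control siRNA replicate 2 (-0.09 against -0.08). Myoz1 (10417933), the calsarcin of fast fibres, read 6.26, 6.01 and 5.95 with H19 siRNA, against 6.20, 6.13 and 6.12 with control siRNA. Its first H19 siRNA array was the highest of all 6 and the other 2 were the lowest, giving a difference of -0.08 (95% interval -0.27 to 0.11, limma adjusted p = 0.767). That difference was -0.17 without H19 siRNA replicate 1 and -0.02 without H19 siRNA replicate 3. Myoz1 minus Myoz2 within arrays averaged -1.70 ± 0.25 with H19 siRNA and -1.77 ± 0.16 with control siRNA (SD, n = 3 each), with an exact permutation p of 0.8 (two-sided, 0.8 after adjustment).

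**Figure D2:**
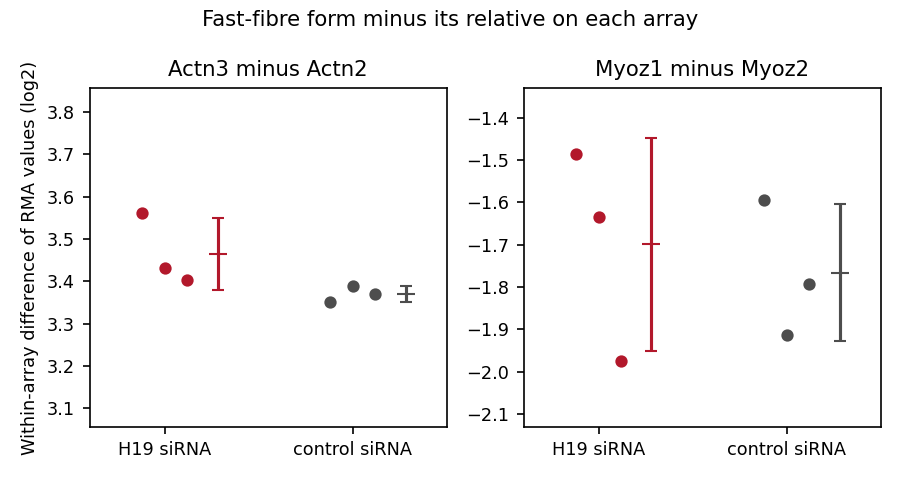
Within-array differences of log2 RMA values (vertical axis) for Actn3 minus Actn2 (left panel) and Myoz1 minus Myoz2 (right panel), with the 3 H19 siRNA arrays in red at left and the 3 control siRNA arrays in grey at right, and the mean and SD beside them (n = 3 each). The alpha-actinin values are apart, at 3.40 or more against 3.39 or less, and the calsarcin values overlap.

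Ldb3 and Pdlim3 encode PDZ-LIM adaptors of alpha-actinin, and the groups were apart for Ldb3 and overlapped for Pdlim3. Ldb3 (10418950), known as ZASP or Cypher, read 8.00, 7.96 and 7.89 with H19 siRNA, against 7.88, 7.75 and 7.86 with control siRNA. The gap between the lowest H19 siRNA array and the highest control array was narrow, and the difference of 0.12 had a 95% interval of 0.0027 to 0.24 with a limma adjusted p of 0.453. Pdlim3 (10571601), the actinin-associated LIM protein, read 10.58, 10.52 and 10.54 with H19 siRNA, against 10.59, 10.54 and 10.57 with control siRNA. Its values interleaved, with a difference of -0.02 (95% interval -0.10 to 0.06, limma adjusted p = 0.873) and the smallest SE of the 10 genes (0.04). It was -0.04 without H19 siRNA replicate 1 and -0.0059 without H19 siRNA replicate 2. Whether the Ldb3 and Pdlim3 differences are unequal was not tested.

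Xirp1 (10597764), an actin-binding repeat protein of muscle attachment sites that binds filamin C, had the largest positive difference of the 10 genes over all 6 arrays. The difference of Actn3 was larger without H19 siRNA replicate 1 (0.14 for Actn3 and 0.13 for Xirp1) and without control siRNA replicate 1 (0.17 and 0.15). Xirp1 read 8.36, 8.27 and 8.25 with H19 siRNA, against 8.10, 8.18 and 8.11 with control siRNA. All H19 siRNA arrays were above all control arrays, the difference was 0.16 (SE 0.04, 95% interval 0.06 to 0.27), a 1.12-fold level, and the limma adjusted p was 0.265. Leaving out 1 array at a time gave 0.13 to 0.19.

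Des (10347583), the muscle intermediate filament protein that links Z-discs side by side, read 12.53, 12.51 and 12.52 with H19 siRNA, against 12.40, 12.48 and 12.49 with control siRNA. The groups did not overlap, but control siRNA replicates 2 and 3 lay close below the H19 siRNA arrays. The difference was 0.06 (95% interval -0.03 to 0.15, limma adjusted p = 0.608), and it was 0.03 without control siRNA replicate 1.

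Tcap and Myot overlapped between the groups. Tcap (10380887), telethonin, which clamps the ends of titin at the Z-disc, read 6.23, 6.04 and 6.19 with H19 siRNA, against 6.26, 6.11 and 6.05 with control siRNA, a difference of 0.02 (95% interval -0.15 to 0.19, limma adjusted p = 0.955). Its sign turned in 4 alternatives, the lowest value being -0.03 without control siRNA replicate 3. Myot (10455461), myotilin, an actin-bundling partner of alpha-actinin and filamin C, read 5.43, 5.29 and 5.22 with H19 siRNA, against 5.45, 5.39 and 5.43 with control siRNA. Only its first H19 siRNA array fell within the range of the control arrays, and the difference was -0.11 (95% interval -0.25 to 0.03, limma adjusted p = 0.547). It was -0.17 without H19 siRNA replicate 1 and -0.07 without H19 siRNA replicate 3. Myot was also the only one of the 10 genes with a mean below the 30th percentile of all units, where RMA compresses differences towards 0.

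**Figure D3:**
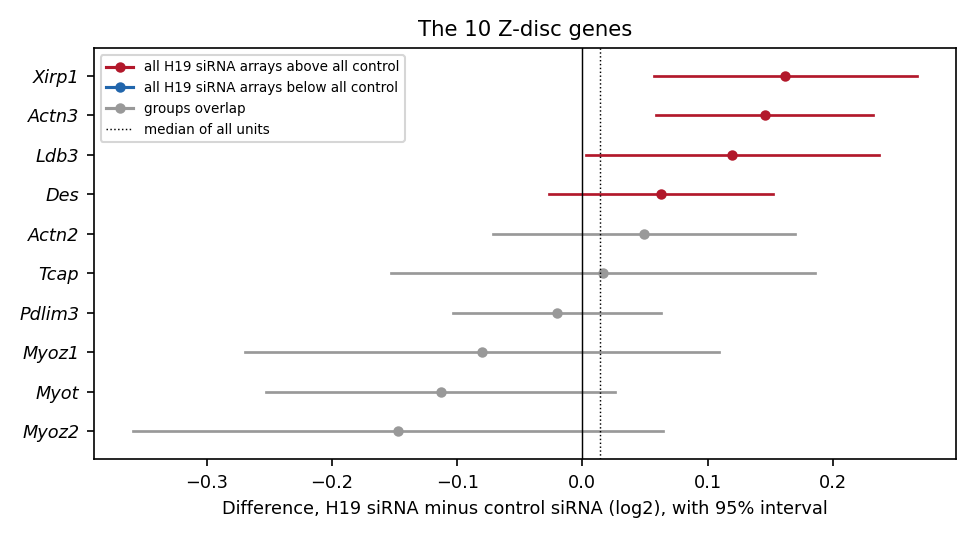
Difference in log2 RMA value (horizontal axis, H19 siRNA minus control siRNA) with the 95% interval from limma for each of the 10 Z-disc genes, drawn red where all 3 H19 siRNA arrays lay above all 3 control siRNA arrays and grey where the groups overlapped. Xirp1, Actn3 and Ldb3 have intervals above 0, the dotted line marks the median of all units at 0.01, and the intervals of the other 7 span 0.

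Arrays differed in how the 10 genes sat against their own 6-array means. On H19 siRNA replicates 1, 2 and 3 there were 8, 5 and 6 genes above their own mean, against 5, 3 and 5 genes on control siRNA replicates 1, 2 and 3. The median deviation over the 10 genes was 0.08, -0.0099 and 0.04 on the H19 siRNA arrays and 0.01, -0.02 and -0.02 on the control siRNA arrays, so H19 siRNA replicate 2 lay between control siRNA replicates 1 and 3. Over all units the array medians of the same deviation stayed between -0.0070 and 0.01. The SD within a group had a median over the 10 genes of 0.06 with H19 siRNA and 0.05 with control siRNA, and over all units it was 0.06 with H19 siRNA and 0.05 with control siRNA.

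Of 41 other genes of the Z-disc and its neighbourhood 0 passed the threshold in limma, against 0.199% of all units. Among them 29 had a positive difference, against 58.0% of all units, and the median was 0.05, against 0.01 over all units. An unadjusted limma p under 0.05 was found for 13 genes (11 higher, 2 lower with H19 siRNA). Over all units this share was 10.9% in either direction and 6.61% higher with H19 siRNA. All H19 siRNA arrays lay above all control arrays for 14 genes and below for 2 (Fhl2, a LIM-only adaptor, at -0.11, and Ppp3ca, a catalytic subunit of calcineurin, at -0.08), against 10.5% and 7.09% of all units. Synpo2l, a Z-disc relative of synaptopodin, had the smallest p, with 8.77, 8.66 and 8.77 with H19 siRNA, against 8.49, 8.52 and 8.53 with control siRNA. Its arrays were clearly apart, with a difference of 0.22 (95% interval 0.12 to 0.32, limma adjusted p = 0.148).

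The 10 genes of this list with the smallest p included 2 muscle RING-finger ubiquitin ligases, the filamin Flnc and a filamin chaperone. Trim54 (MuRF3) differed by 0.22 and Trim55 (MuRF2) by 0.21, with limma adjusted p-values of 0.248 and 0.229, while Trim63 (MuRF1) differed by -0.04. Flnc, the muscle filamin that binds myotilin and Xirp1, read 11.81, 11.76 and 11.76 with H19 siRNA, against 11.67, 11.61 and 11.67 with control siRNA, a difference of 0.13 (limma adjusted p = 0.279). Hspb8, a small heat shock protein that acts with Bag3 on damaged filamin, differed by 0.16 (limma adjusted p = 0.214), and Bag3 itself by 0.06. The groups did not overlap for Trim54, Trim55, Flnc and Hspb8, with the H19 siRNA arrays above. These genes were taken by smallest p, which favours such separation, so the 10.5% of all units is no yardstick for them.

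The PDZ-LIM genes of the list had positive differences, its actin-binding genes had differences on both sides of 0, and none passed. Pdlim4, a LIM protein that binds alpha-actinin, differed by 0.21 and Pdlim7, enigma, by 0.13, whereas Pdlim1 and Pdlim5 each differed by 0.02. Nexn, an actin-binding protein of the Z-disc, differed by 0.14, and the alpha-actinin partners Palld and Mypn differed by 0.12 and 0.11. Among other actin-binding genes Xirp2, a relative of Xirp1, differed by -0.11, Nrap by -0.01, and the capping protein subunits Capza2 and Capzb by -0.0065 and -0.0046. Limma adjusted p-values ran from 0.223 for Pdlim4 to 0.363 for Pdlim7 over Pdlim4, Pdlim7, Nexn, Palld and Mypn, and were 0.846 for Pdlim1 and 0.860 for Pdlim5. The non-muscle alpha-actinins Actn1 and Actn4, which cross-link actin at adhesions and in the cortex, differed by 0.05 and 0.0063. Myh8, Myoz3, Xirp2, Nrap, Capza2, Capzb, Trim63, Bag3, Pdlim1, Pdlim5, Actn1, Actn4, Fhl2 and Ppp3ca were named after their values were seen. With an intensity trend and robust variance 5 of the 41 genes passed, Synpo2l, Hspb8, Pdlim4, Trim55 and Flnc, as did 435 of all 21559 units.

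**Figure D4:**
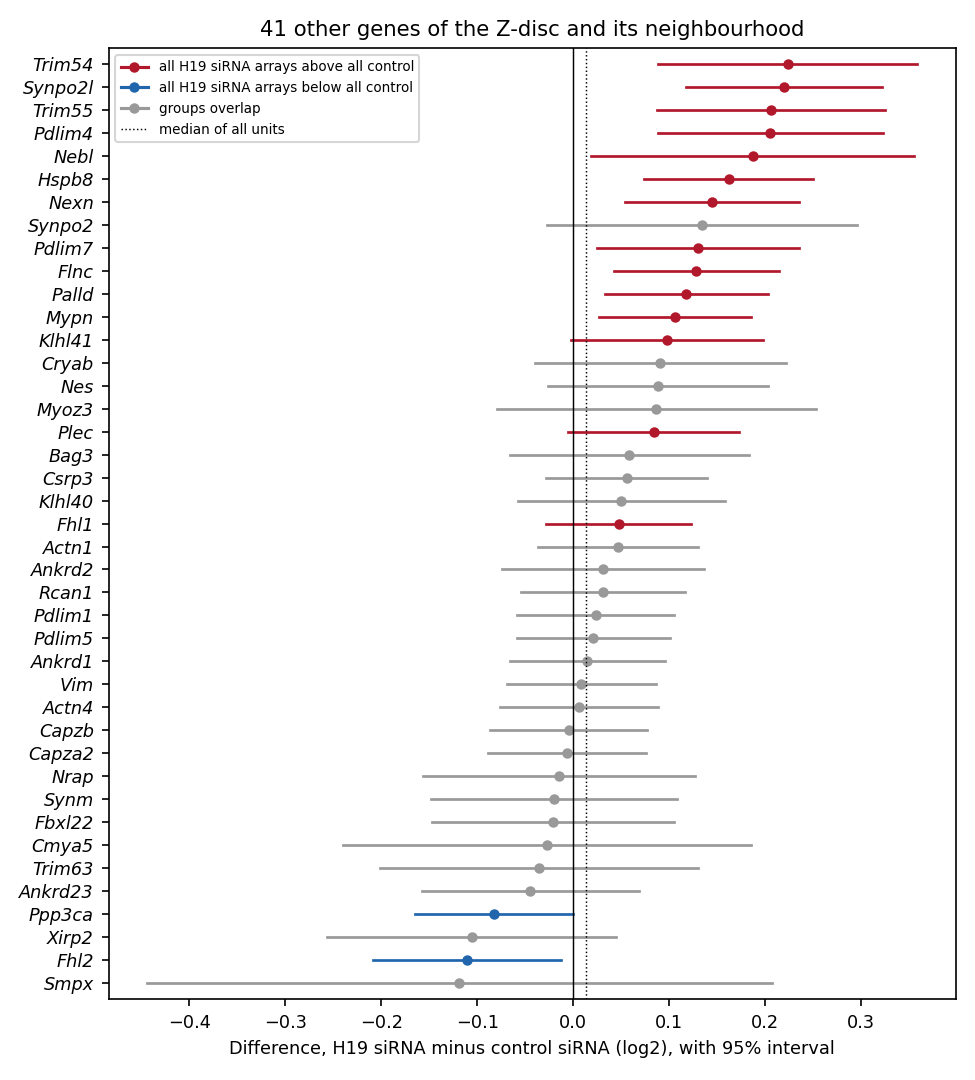
Difference in log2 RMA value (horizontal axis, H19 siRNA minus control siRNA) with the 95% interval from limma for the 41 other genes of the Z-disc and its neighbourhood, red where all H19 siRNA arrays lay above all control siRNA arrays (14 genes), blue where all lay below (2 genes) and grey where the groups overlapped. Trim54, Synpo2l, Trim55 and Pdlim4 have the largest values, from 0.21 to 0.22, and the dotted line marks the median of all units.

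Neighbouring parts of the sarcomere are set beside the Z-disc genes by counts and medians alone, with no test between lists. The median difference was 0.03 for the 10 Z-disc genes, 0.11 for 8 troponins, 0.05 for 10 thin filament genes and 0.09 for 9 genes of titin, the M-band and thick filament proteins. Positive differences were seen in 6 of 10 Z-disc genes, 6 of 8 troponins, 7 of 10 thin filament genes and 7 of 9 genes of the last list. Over all units the median was 0.01, 58.0% had a positive difference and 0.199% passed the threshold. Tnnt2, the troponin T of developing muscle and heart, was the only one of these neighbours past the threshold, at 12.71, 12.71 and 12.73 with H19 siRNA, against 12.44, 12.47 and 12.44 with control siRNA (difference 0.26, limma adjusted p = 0.0425). It missed the threshold when any 1 of the 6 arrays was left out, with limma adjusted p-values of 0.0969 to 0.262, and also over all rows of the table (0.129), with arrays centred on their medians (0.0528) and with the replicate number as a block (0.326).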

How the data were processed

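The authors deposited log2 values per probe set. The submitters' processing notes name RMA and Affymetrix Expression Console, and versions, annotation and genome build are not given in the sources consulted. RMA subtracts background, applies quantile normalisation across arrays and combines the probes of a set. The table held 35556 rows for 6 arrays, with array medians of 6.73 to 6.78. Pairwise Pearson's r across rows was 0.9958 to 0.9975, and 0 pairs of arrays were identical. The small number of arrays limits precision, and no batch is labelled.

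GEO's platform annotation named 21789 rows by 1 symbol and 1621 by several, and 12146 were not listed. The probe set with the highest mean stood for a gene with several, which left 21559 units. The comparison used limma 3.58.1 (lmFit, eBayes) under R 4.3.3, H19 siRNA minus control siRNA, two-sided, without covariate or filter, with Benjamini-Hochberg adjustment over all units. The code was tested on simulated data. Intervals are 95% intervals of that fit. The main fit did not pair arrays by replicate number. Residuals of same-numbered arrays correlated at -0.02, -0.13 and -0.14, and those of differently numbered arrays at -0.03 to 0.13. With 3 arrays a group these values cannot decide whether any arrays were paired. Named genes were the 10 Z-disc genes, the Mir675 probe set, Myod1, Myog, Myh3 and Ckm, the 10 other Z-disc genes with the smallest p and any neighbour past the threshold. The genes and lists were chosen with earlier results of these data known. Of the marker lists, Bglap was not analysed here, and 1 gene of a neighbouring list is not reported here. Whether probes are shared between related genes such as Actn2 and Actn3 was not checked. Alternatives were the rows tested, the probe sets of a gene, the variance model, array weights, filters on dim units, scaling, the replicate number as a block and leaving out each array.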

Additional observations from a re-analysis of the deposited data

How the results depend on the processing

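All values are limited by 3 arrays a group and by the lack of detection calls, so signal over background is unknown for the dim genes such as Myot. The count of Z-disc genes past the threshold in limma was 0 in every alternative except an intensity trend with robust variance, where it was 1 of 10 (Actn3), and the unadjusted count of the 10 was 3. All 10 were tested except with the filters at the 30th percentile, which kept 9, and at the median, which kept 6. The other Z-disc list had 0 of 41, but 5 with the intensity trend and 2 of 33 after filtering at the median (Synpo2l and Hspb8). Its unadjusted count was 13. The median difference of the 10 genes ran from 0.0045 after a second quantile normalisation to 0.0553 without control siRNA replicate 1. It was 0.0913 over the 6 genes kept by the filter at the median, which left each gene's own difference unchanged. The median of the other list ran from 0.0312 to 0.0476 over its 41 genes, and was 0.0503 over the 33 kept by that filter. The median of all units was 0.0137, and -0.0028 once arrays were centred on their medians.

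Units past the threshold numbered 43, and 11 over all rows of the table, 435 with the intensity trend, 70 with array weights, 111 and 266 with filters at the 30th percentile and the median, and 1 to 21 with 1 array left out. With the replicate number as a block 3 units, 0 Z-disc genes and 0 other Z-disc genes passed. Tcap turned to -0.0001 with arrays centred, to -0.0188 with quantiles normalised again, and negative without H19 siRNA replicate 1 (-0.0228) or control siRNA replicate 3, with a range of -0.0297 to 0.0763 when 1 array was left out, and the cause was not tested. None of the other 9 Z-disc genes (Actn2, Actn3, Myoz1, Myoz2, Ldb3, Myot, Xirp1, Pdlim3 and Des) changed sign in any alternative run. The shift of Actn3 minus Actn2 was 0.0480 to 0.1283 with 1 array left out and that of Myoz1 minus Myoz2 was -0.0396 to 0.2061, negative without H19 siRNA replicate 1 or control siRNA replicate 2.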

Other observations

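Nebl, a nebulin relative of the Z-disc, and Pdlim1 were the only genes of the 51 listed for the Z-disc with more than 1 probe set. For Nebl the brighter probe set (10480275) averaged 6.26 ± 0.12 with H19 siRNA and 6.07 ± 0.08 with control siRNA (SD, n = 3 each), and the dimmer (10480288) averaged 5.22 ± 0.10 with H19 siRNA and 5.25 ± 0.12 with control siRNA, so the differences of 0.19 and -0.03 had opposite signs. For Pdlim1 both were near 0, at 0.02 and 0.05. These genes were named after their values were seen.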
